A study of Mus musculus with 6 samples.

Results

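The antioxidant and NADPH oxidase genes are 34 named mouse genes, looked up by symbol in all 6 single-cell libraries of the series. All 34 were found once in each library, among 30406 genes that carry the same identifier throughout. They are the peroxiredoxins Prdx1 to Prdx6 with Srxn1, the glutathione peroxidases Gpx1, Gpx3 and Gpx4, catalase (Cat) and the superoxide dismutases Sod1 and Sod2, the thioredoxin genes Txn1, Txn2, Txnrd1, Txnrd2 and Txnip, the glutathione genes Slc7a11, Gclc, Gclm, Gss, Gsr and Glrx, the glutathione transferases Gsto1, Mgst1 and Gstp1, the NRF2 axis Nfe2l2, Keap1 and Nqo1, and the NADPH oxidase subunits Cybb, Cyba, Ncf1 and Ncf4. Each library is bone marrow of leukaemic mice, made by putting leukaemia genes into mouse stem cells. Marrow cells freed of red cells were run on the Chromium 3′ system, which counts each captured RNA molecule by a unique molecular identifier (UMI). Of the libraries, 4 carry MLL-AF9 (MA9) and 2 carry Hoxa9-Meis1 (HM). The MA9 libraries are labelled Shp-1 f/f or Shp-1 Δ/Δ, each with PBS or with AraC plus Dox, and both HM libraries are Shp-1 f/f, with PBS or AraC plus Dox. Shp-1 is the tyrosine phosphatase encoded by Ptpn6, and f/f marks the floxed, undeleted allele. There was 1 library per group, and the number of animals behind each, the doses, the ages and the promoter that drove the deletion were not given in the sources used here.

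Neutrophils and monocytes kill microbes with the phagocyte NADPH oxidase, whose membrane core of Cybb and Cyba takes electrons from NADPH to make superoxide once the cytosolic subunits, among them Ncf1 and Ncf4, have joined it. Superoxide dismutases turn superoxide into hydrogen peroxide, which catalase, glutathione peroxidases and peroxiredoxins remove. Peroxiredoxins are recharged by thioredoxin and thioredoxin reductase, and glutathione peroxidases by glutathione, which is built from imported cystine and recycled by glutathione reductase. The transcription factor NRF2 (Nfe2l2), held in check by Keap1, drives many of these genes through a short DNA word called the antioxidant response element.

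After cells with under 500 detected genes or over 10% mitochondrial UMIs were left out, 2755 to 9750 cells per library remained, with a median of 4021 to 10113 UMIs per cell. The HM PBS library lost 74.7% of its barcodes to the mitochondrial limit, against 1.83% to 8.33% in the others. The level of Ptpn6, the targeted gene, did not separate the Δ/Δ from the f/f labels. It was 186 UMIs per 1000000 UMIs (CPM) under the label MA9 f/f PBS and 172 under MA9 Δ/Δ PBS. Levels were 57.7 CPM in MA9 f/f AraC + Dox and 43.6 CPM in MA9 Δ/Δ AraC + Dox. Within each treatment the Δ/Δ label had the lower value, by under 1.5-fold (log2 ratios of -0.11 and -0.40). AraC + Dox over PBS gave larger log2 ratios, -1.69 for f/f and -1.98 for Δ/Δ. Both HM libraries, labelled f/f, lay between, at 135 CPM (PBS) and 113 CPM (AraC + Dox). A 3′ tag can lie outside a deleted stretch, so these counts do not settle the genotypes, and every library below is named by its label alone. Cells were sorted into types by summed marker genes, and each such gate is used in a library only where it held at least 50 cells. None of the 34 genes is a gate marker. The mature neutrophil gate held 81 to 1207 cells per library with a median depth of 1911 to 4506 UMIs, and the promyelocyte gate of HM AraC + Dox held 88 cells with a median of 59257 UMIs against 6773 in the whole library. The cells that met no gate made up 4.03% to 22.3% of a library. Cells that met several gates were also left out of every gate, and made up a further 1.996% to 12.003%. These 2 shares were 22.3% and 12.003% in MA9 Δ/Δ PBS, against 13.18% and 5.39% in MA9 f/f PBS. With AraC + Dox they were 19.96% and 9.86% for MA9 Δ/Δ, against 12.36% and 4.66% for MA9 f/f.

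Across the gates, the members fell into contrasting patterns. Along the neutrophil series, from progenitor-gated cells to promyelocytes, immature and mature neutrophils, the level of Prdx5, Slc7a11, Mgst1, Glrx, Gsr and the oxidase genes was high in neutrophils, while Prdx1, Prdx2, Prdx3, Prdx4, Sod1, Cat and Gsto1 were low there. Monocyte-gated cells had the reverse balance for most of these genes.

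**Figure D1:**
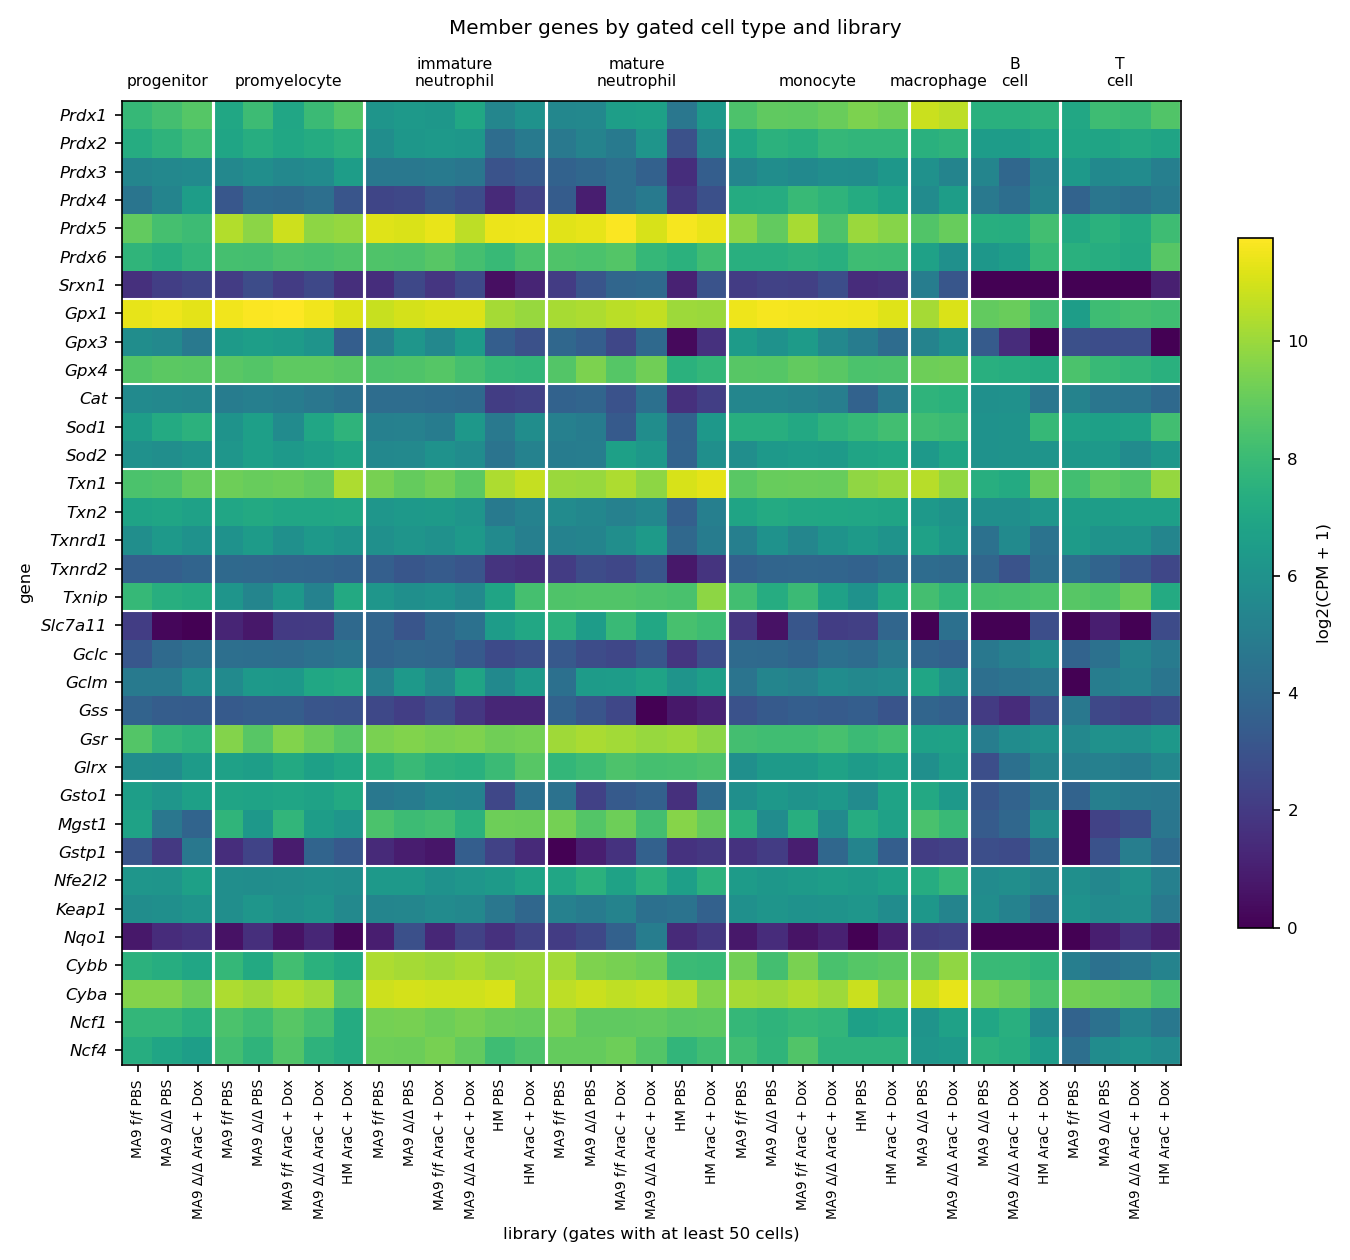
Level of each of the 34 members as log2(CPM + 1), by colour, in each gate (blocks of columns) and library (columns), with genes grouped by role. Prdx5 and Slc7a11 are bright in the neutrophil blocks, Prdx4 in the monocyte block and Prdx1 in the macrophage block, where it reached 1809 CPM.

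Mature neutrophils and progenitors could be compared within 3 libraries, MA9 f/f PBS, MA9 Δ/Δ PBS and MA9 Δ/Δ AraC + Dox. Of 31 members tested with edgeR's quasi-likelihood test, 15 were higher and 9 lower in mature neutrophils at a Benjamini-Hochberg adjusted p under 0.05. Over all 8014 genes tested, 27.4% were higher and 27.7% lower. The members' median log2 fold change was 0.14, against -0.11 for all genes. These fits scale each sum of cells by TMM. Scaling by total UMIs shifts all genes down by 0.61 (log2) and turns the all-gene split of 2193 higher and 2222 lower into 1340 and 3789, with 13 members higher and 11 lower.

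Among the peroxiredoxins, Prdx5, a peroxide reductase of mitochondria, peroxisomes and cytosol, was the one with the steepest difference upwards. It stood at 483 CPM in progenitors of MA9 f/f PBS, 316 in MA9 Δ/Δ PBS and 266 in MA9 Δ/Δ AraC + Dox, and at 2388, 2599 and 2105 CPM in mature neutrophils of the same libraries. The gates did not overlap, and the fitted log2 fold change was 3.38 ± 0.25 (SE, n = 3 libraries; edgeR adjusted p = 2.4e-06). Prdx6, which also has phospholipase activity, was higher as well, by 1.30 (log2). The other family members went the opposite way. Prdx1, the abundant cytosolic peroxiredoxin, fell from 318 ± 87.7 CPM in progenitors to 62.4 ± 33.1 CPM in mature neutrophils (SD, n = 3), a log2 fold change of -1.85 ± 0.22 (edgeR adjusted p = 5.2e-05). Prdx2 was lower by -1.74 (log2), the mitochondrial Prdx3 by -1.13 and Prdx4, of the endoplasmic reticulum, by -1.70. The Prdx4 call was lost without MA9 Δ/Δ PBS, where it gave an edgeR adjusted p of 0.10, and was at 0.051 without MA9 Δ/Δ AraC + Dox.

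Of the peroxidases and dismutases, Gpx4, which repairs lipid peroxides, was higher in mature neutrophils by 0.96 (log2), and the secreted Gpx3 (-1.19), Cat (-1.09) and cytosolic Sod1 (-1.25) were lower. Mitochondrial Sod2 showed a fitted value of 0.01 and Gpx1 of -0.33, neither passing the test. In the thioredoxin system, cytosolic Txn1 was higher by 1.86 and its binding partner Txnip by 1.63 (log2), and the mitochondrial Txn2 was lower by -0.72. The reductases Txnrd1 and Txnrd2 did not pass. Those of Gpx3 and Txn2 were also lost without MA9 Δ/Δ PBS (edgeR adjusted p = 0.089 and 0.13) and that of Cat without MA9 f/f PBS (0.079). With gates of 20 cells or more Gpx3 was at an edgeR adjusted p of 0.053. The calls of Gpx3, Cat and Txn2 were absent with DESeq2, and that of Gpx4 with total-UMI scaling, where its adjusted p was 0.14.

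Genes that supply and recycle glutathione had 4 of 6 higher and 0 lower, beside the 27.4% and 27.7% of all genes, and 3 and 0 with total-UMI scaling. Slc7a11 encodes the transporter that brings in cystine for glutathione synthesis. It stood at 3.43 CPM in progenitors of MA9 f/f PBS (5 UMIs), at 0.14 in MA9 Δ/Δ PBS (2 UMIs) and at 0 in MA9 Δ/Δ AraC + Dox. In the last, 0 UMIs were seen, and the floor of 3 counts was 2.28 CPM. Mature neutrophils of these libraries held 191, 89.9 and 132 CPM, so the gates were far apart; the fitted fold depends on the empty library and is not given. Gsr, glutathione reductase, went from 271 ± 104 to 1111 ± 131 CPM (SD, n = 3), a log2 fold change of 2.70 ± 0.25 (edgeR adjusted p = 1.1e-05). Glrx, a glutaredoxin that removes glutathione from proteins, was higher by 2.71, and Gclm, the modifier subunit of glutamate-cysteine ligase, by 1.51 (log2). Gclm was higher in CPM in only 2 of 3 libraries, and with total-UMI scaling its adjusted p was 0.056. The catalytic subunit Gclc and the synthase Gss did not pass.

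Among the glutathione transferases, the membrane-bound Mgst1 was higher and Gsto1 lower in mature neutrophils. Mgst1 stood at 109, 24.4 and 12.9 CPM in the progenitors of MA9 f/f PBS, MA9 Δ/Δ PBS and MA9 Δ/Δ AraC + Dox and at 637, 398 and 302 CPM in their mature neutrophils, with a fitted log2 fold change of 4.20 ± 0.35 (edgeR adjusted p = 4.8e-06). Its order over the libraries was the same in both gates, with MA9 f/f PBS highest. Gsto1 fell from 89.7 ± 16.3 to 12.1 ± 8.46 CPM (SD, n = 3). Gstp1 was too low to test and shares sequence with near-identical copies, so its counts are uncertain. In the NRF2 axis, Nfe2l2 was higher by 1.64 (log2), Keap1 did not pass, and Nqo1, an NRF2 target quinone reductase, was too low to test. Nqo1 was at 4.78 CPM or less in both gates apart from 31.0 CPM in mature neutrophils of MA9 Δ/Δ AraC + Dox. That gate held 81 cells and 258392 UMIs of all genes, so its Nqo1 value rests on few counts.

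All 4 NADPH oxidase subunits were higher in mature neutrophils than in progenitors, beside 27.4% of all 8014 genes tested. The log2 fold changes were 2.92 ± 0.21 for Cybb, the catalytic gp91phox, 1.89 for its partner Cyba, 2.01 for Ncf1 (p47phox) and 2.53 for Ncf4 (p40phox). For Cybb, progenitors held 186, 160 and 126 CPM and mature neutrophils 1109, 723 and 577 CPM in MA9 f/f PBS, MA9 Δ/Δ PBS and MA9 Δ/Δ AraC + Dox. No library's progenitors reached any library's mature neutrophils. T-cell-gated cells held 19.8 to 37.1 CPM of Cybb.

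The upstream DNA of Slc7a11, Mgst1, Gclm and Prdx1 is printed because these genes set the patterns of this report and carry words that NRF2 or C/EBP factors, the granulocyte regulators, are known to bind. Promoter windows came from RefSeq (GRCm38.p6) and were found for 30 of the 34 members. Each line gives the 250 bases before the start site, 5′ to 3′ on the gene's strand, and capitals mark matches on either strand to the antioxidant response element core TGACNNNGC or the C/EBP word TTGCNNAA. Positions count from the start site, with -1 the last base before it.
Slc7a11: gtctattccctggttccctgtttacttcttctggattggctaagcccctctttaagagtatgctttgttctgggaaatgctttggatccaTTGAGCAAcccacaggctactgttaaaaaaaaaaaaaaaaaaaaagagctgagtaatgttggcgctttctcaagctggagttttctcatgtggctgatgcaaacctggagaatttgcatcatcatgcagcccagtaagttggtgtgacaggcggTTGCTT
Mgst1: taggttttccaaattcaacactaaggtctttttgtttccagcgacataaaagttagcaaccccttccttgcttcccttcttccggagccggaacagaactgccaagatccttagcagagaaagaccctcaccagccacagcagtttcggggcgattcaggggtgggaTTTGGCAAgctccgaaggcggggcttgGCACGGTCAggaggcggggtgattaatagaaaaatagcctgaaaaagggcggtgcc
Gclm: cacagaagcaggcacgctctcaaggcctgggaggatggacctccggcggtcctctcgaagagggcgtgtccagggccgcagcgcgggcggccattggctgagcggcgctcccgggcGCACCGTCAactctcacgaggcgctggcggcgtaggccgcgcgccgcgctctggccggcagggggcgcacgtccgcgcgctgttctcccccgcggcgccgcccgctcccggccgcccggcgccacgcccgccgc
Prdx1: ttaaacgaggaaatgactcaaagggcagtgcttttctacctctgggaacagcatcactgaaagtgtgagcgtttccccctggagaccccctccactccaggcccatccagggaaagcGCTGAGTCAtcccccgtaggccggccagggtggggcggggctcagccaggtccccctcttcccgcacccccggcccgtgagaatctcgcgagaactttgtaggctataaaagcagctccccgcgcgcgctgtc
The Slc7a11 window lies at chr3:50443614-50443863 on the minus strand and holds C/EBP words at -160 and at -6, the second running on past the start site. The first of the Mgst1 windows, chr6:138140277-138140526 on the plus strand, holds a C/EBP word at -83 and an antioxidant response core at -56. The Gclm window, chr3:122245307-122245556 (plus strand), holds a core at -134, and the Prdx1 window, chr4:116685349-116685598 (plus strand), one at -133. Over windows that run from 250 bases before to 50 bases after the start, the core was present in 7 of 30 members (23.3%) and in 14.0% of 27025 genes. The C/EBP word was in 3 of 30 (10.0%) against 12.2% of genes, and the PU.1 word GAGGAAGT in 1 of 30 (3.33%) against 3.69%. A word match is a description of these letters and not a measured binding site.

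Steps within the neutrophil series were then compared. Immature neutrophils were set against promyelocytes in 5 libraries, a comparison added after the gate sizes were seen. Of 34 members, 12 were higher and 10 lower in immature neutrophils, against 19.5% higher and 19.1% lower of 11332 genes. With total-UMI scaling, which shifts all genes by -0.39 (log2), the all-gene split went from 2205 higher and 2162 lower to 1206 and 4320, and the members' to 10 and 14. The number of members called, 22, fell to 11 without MA9 Δ/Δ PBS and to 14 without MA9 Δ/Δ AraC + Dox.

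All 4 oxidase genes were higher in immature neutrophils than in promyelocytes, beside 19.5% of all 11332 genes tested. The step from progenitors to promyelocytes was not tested. Cybb stood at 227 CPM in promyelocytes of MA9 f/f PBS, 143 in MA9 Δ/Δ PBS, 296 in MA9 f/f AraC + Dox, 182 in MA9 Δ/Δ AraC + Dox and 139 in HM AraC + Dox. Immature neutrophils of the same libraries held 1276, 1151, 1066, 1188 and 1063 CPM, a narrow band well above all promyelocyte values. The fitted log2 fold change was 3.0 ± 0.24 (n = 5 libraries; edgeR adjusted p = 0.00035), and Cyba (1.19), Ncf1 (1.48) and Ncf4 (1.55) were higher too. Prdx5 was higher by 1.41, Mgst1 by 1.76, Glrx by 1.40 and Slc7a11 by 3.32 (log2). Slc7a11 went from 1.29, 0.70, 3.0, 3.07 and 15.3 CPM in promyelocytes to 13.5, 7.48, 14.4, 19.7 and 132 CPM in immature neutrophils, higher in all 5 libraries and highest in HM AraC + Dox in both gates. Lower in immature neutrophils were Prdx1 (-1.0), Prdx2 (-0.95), Prdx3 (-0.99), Prdx4 (-0.81), Sod1 (-0.76), Sod2 (-0.53), Cat (-0.69), Txn2 (-0.56), Gss (-0.96) and Gsto1 (-1.66). The calls of Prdx6 and Gsr were lost with total-UMI scaling (adjusted p = 0.54 and 0.22). Without MA9 Δ/Δ PBS, edgeR no longer called Gsr (adjusted p = 0.14), Prdx3 and Sod2 (0.10 each), Prdx4 (0.093), Cat (0.077), Prdx6 and Mgst1 (0.075 each), Prdx1 (0.060), Txn2 (0.059), Nfe2l2 (0.056) or Prdx2 (0.053). Without MA9 Δ/Δ AraC + Dox, 8 of these were again lost, with edgeR adjusted p from 0.051 (Mgst1) to 0.10 (Gsr). Without MA9 f/f PBS, 7 were lost (edgeR adjusted p = 0.051 for Gsr to 0.077 for Prdx6), and without MA9 f/f AraC + Dox, Cat (0.057) and Prdx4 (0.058) were.

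From immature to mature neutrophils, tested in all 6 libraries, Slc7a11, Txnip, Txn1 and Nfe2l2 were higher in the mature cells. Relative to mature neutrophils, 4 of 34 members were higher in immature neutrophils and 8 lower, against 27.2% and 25.1% of 9187 genes; with total-UMI scaling 7 were higher and 7 lower. Slc7a11 in mature neutrophils ran from 89.9 to 323 CPM (median 219.9) and in immature ones from 7.48 to 132 (median 17), and in every library the mature gate held more. Its fitted difference, immature over mature, was -3.02 ± 0.42 (log2; n = 6 libraries; edgeR adjusted p = 0.00021). Txnip, at 339 to 880 CPM in mature and 45.8 to 316 CPM in immature neutrophils, gave -2.45 ± 0.23, and Srxn1 (-1.80), Txn1 (-0.99), Nfe2l2 (-0.98), Gsr (-0.82), Mgst1 (-0.75) and Glrx (-0.54) were lower in immature cells as well. Srxn1 recycles over-oxidised peroxiredoxin. Glrx lost its call with total-UMI scaling (adjusted p = 0.089) and without any 1 of HM PBS, MA9 Δ/Δ AraC + Dox, MA9 f/f PBS or MA9 f/f AraC + Dox (edgeR adjusted p = 0.068 to 0.13). Cybb was the oxidase gene that passed the test, higher in immature neutrophils by 0.93 ± 0.27 (edgeR adjusted p = 0.013): its level was 1006 to 1276 CPM in the immature gate and 245 to 1109 CPM in the mature one, lowest in the HM libraries at 258 and 245 CPM. Without HM PBS its adjusted p was 0.050. Gpx3 (2.23), Gsto1 (0.95) and Txn2 (0.61) were also higher in immature cells, though Gsto1 was at an edgeR adjusted p of 0.052 without MA9 Δ/Δ PBS, 0.051 without MA9 Δ/Δ AraC + Dox and 0.050 without MA9 f/f AraC + Dox.

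**Figure D2:**
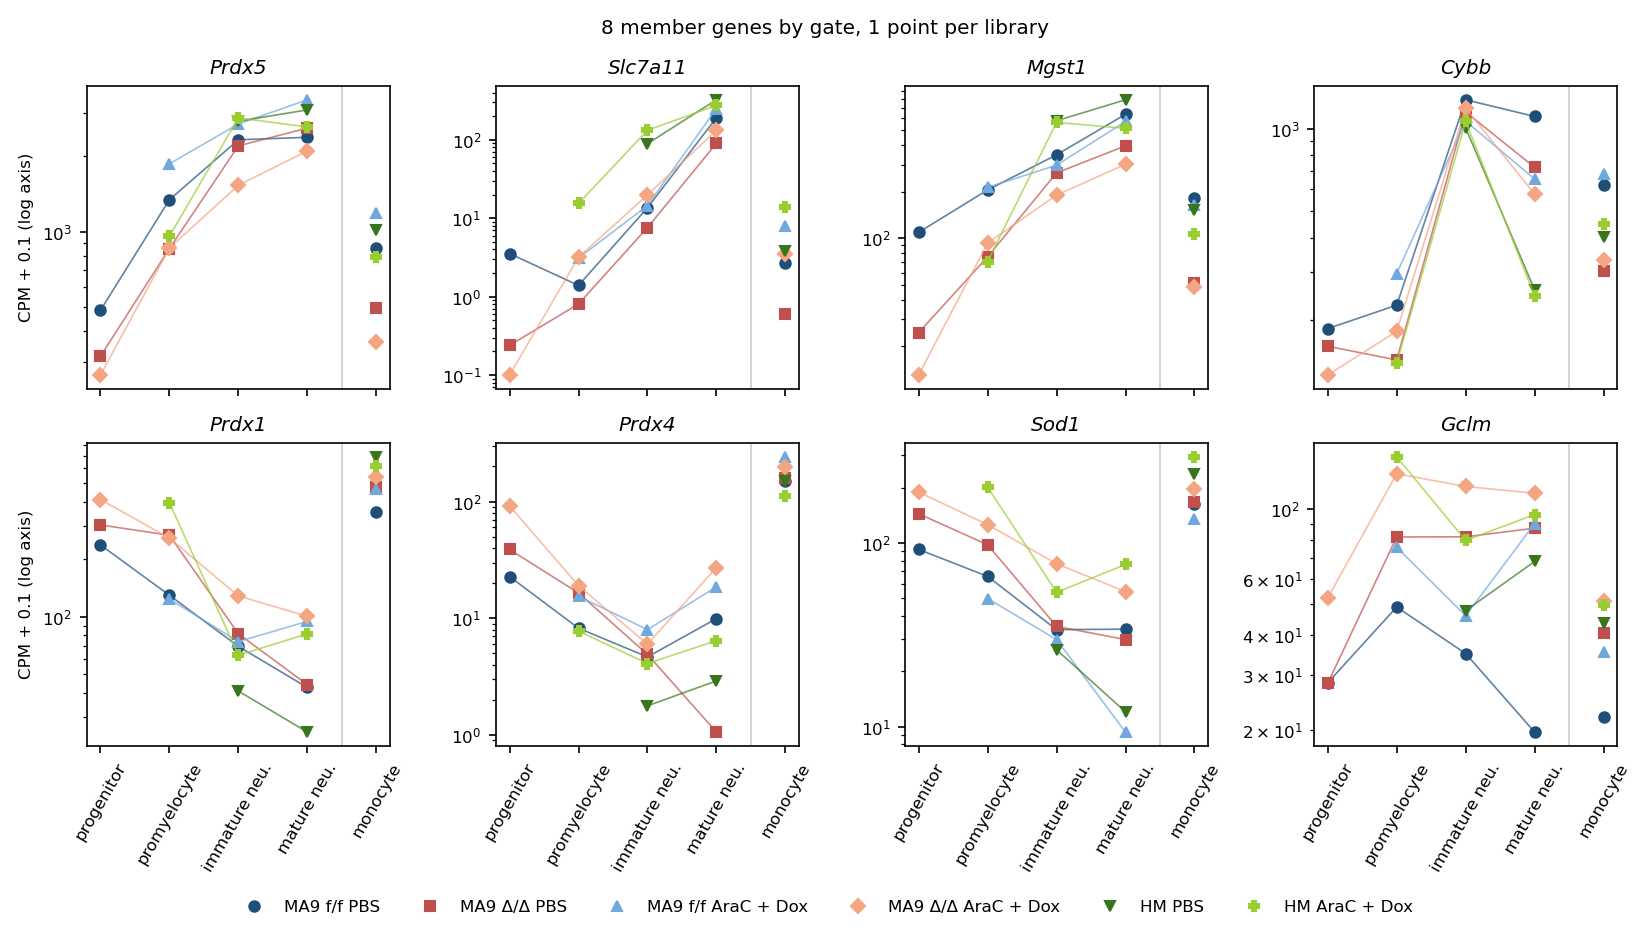
CPM (plus 0.1, log axes) of 8 members in the neutrophil series and, right of the grey line, in monocytes, with 1 point per library and lines joining gates of the same library. Slc7a11 climbs to 89.9 to 323 CPM in mature neutrophils, Cybb peaks in immature ones at 1006 to 1276 CPM, and Prdx4 is highest in monocytes at 112 to 242 CPM.

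Monocytes had higher Prdx1 to Prdx4, Cat and Sod1 and lower Prdx5, Slc7a11, Gsr and Mgst1 than mature neutrophils. Against mature neutrophils, tested in all 6 libraries, 14 of 33 members tested were higher in monocytes and 16 lower, with 37.6% and 28.4% of 9999 genes as background. The median log2 fold change was -0.08 for members and 0.24 for all genes. Total-UMI scaling shifts all genes by 0.71 (log2), turns the all-gene split of 3756 higher and 2844 lower into 5698 and 1620, and leaves 16 members higher and 12 lower.

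Higher in monocytes were Prdx1, Prdx2, Prdx3, Prdx4, Gpx1, Gpx3, Cat, Sod1, Txn2, Txnrd2, Gclc, Gsto1, Gstp1 and Keap1. Prdx1 ran from 355 to 690 CPM in monocytes (median 510) and from 24.8 to 100.6 CPM in mature neutrophils (median 62.7), without overlap, for a log2 fold change of 2.49 ± 0.25 (n = 6 libraries; edgeR adjusted p = 1.2e-06). Prdx4 ran from 112 to 242 CPM (median 154) against 0.96 to 27.1 CPM (median 8.07), and its fitted value of 3.71 ± 0.34 was the largest upward value among the members (edgeR adjusted p = 5.8e-07). Sod1 was higher by 2.01, Gpx3 by 2.48 and Gsto1 by 2.32 (log2), with higher CPM in all 6 libraries. The Gstp1 call did not hold without HM PBS (edgeR adjusted p = 0.25), which held 38.9 CPM in monocytes against 0.96 to 14.2 in the others. The Gpx1 call, 0.48 (log2), was lost in 5 of the 6 fits that each left out 1 library, all but the one without HM PBS (edgeR adjusted p = 0.051 to 0.080). The Keap1 call was lost without HM AraC + Dox (0.077).

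Lower in monocytes were Prdx5, Prdx6, Srxn1, Gpx4, Txn1, Txnip, Slc7a11, Gclm, Gsr, Glrx, Mgst1, Nfe2l2 and all 4 oxidase subunits. Prdx5 ran from 362 to 1189 CPM in monocytes and from 2105 to 3376 CPM in mature neutrophils, with a fitted value of -2.55 ± 0.21 (edgeR adjusted p = 2.1e-07). Slc7a11 ran from 0.50 to 13.6 CPM (median 3.54) in monocytes, below every mature neutrophil value, with a fitted value of -6.23 ± 0.37 (edgeR adjusted p = 7.2e-09). Gsr, at 256 to 322 CPM in monocytes and 839 to 1253 CPM in mature neutrophils, gave -2.54, Mgst1 -2.98, Glrx -2.49 and Ncf1 -2.17 (log2). For Cybb (-0.89) and Cyba (-0.97) the CPM of monocytes was lower in only 3 and 4 of 6 libraries, and neither passed with total-UMI scaling (adjusted p = 0.50 and 0.21); Prdx6 did not either (0.080). Gpx4 changed sign there, from -0.55 to 0.12, and its call was lost without MA9 Δ/Δ PBS (edgeR adjusted p = 0.099) and without MA9 Δ/Δ AraC + Dox (0.074).

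**Figure D3:**
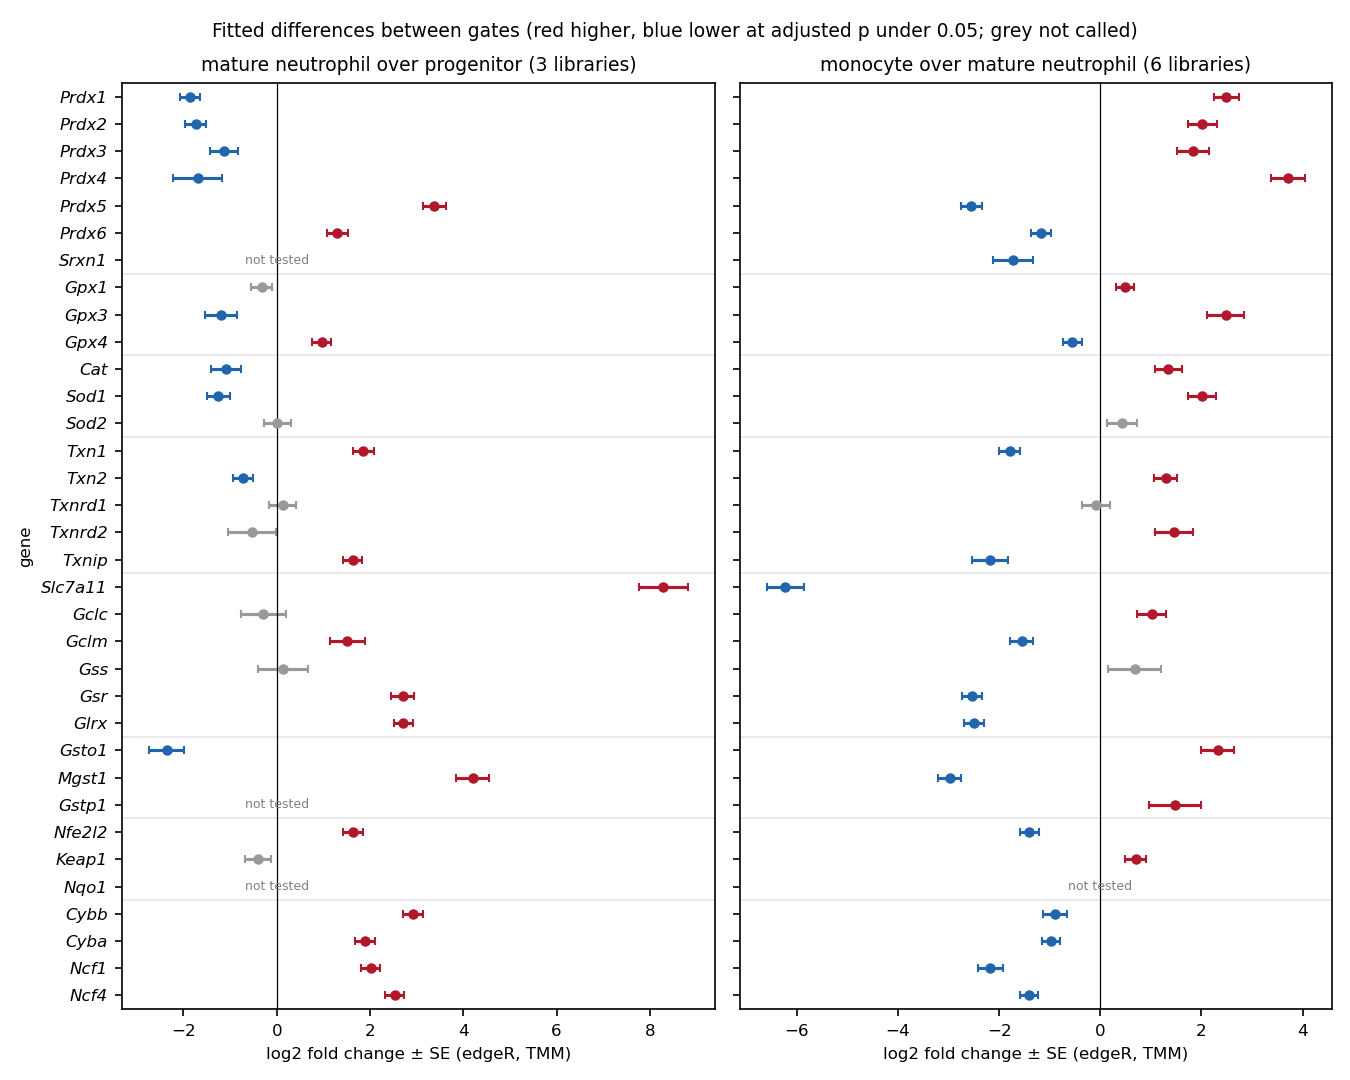
Fitted log2 fold changes (points) with their SE (bars) of the members, mature neutrophil over progenitor in 3 libraries (left) and monocyte over mature neutrophil in 6 libraries (right), coloured by call. Prdx1 to Prdx4 lie left of 0 in the left panel and right of 0 in the right panel, Slc7a11 has the value farthest below 0 at right (-6.23), and the Slc7a11 point at left rests on a library with 0 UMIs.

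Against progenitors, monocytes of 3 libraries were higher in 8 of 34 members and lower in none, with 7.39% higher and 5.98% lower of 10976 genes. The 8 were Cybb (1.35), Prdx4 (1.88), Mgst1 (1.10), Ncf4 (0.89), Cyba (0.67), Prdx5 (0.66), Gpx3 (0.63) and Prdx1 (0.56), as log2 fold changes. At an unadjusted p under 0.05 the count of lower members was 1 (Prdx2), and DESeq2 called 0 lower. Prdx4 stood at 22.7, 38.7 and 91.8 CPM in progenitors and at 149, 158 and 198 CPM in monocytes of MA9 f/f PBS, MA9 Δ/Δ PBS and MA9 Δ/Δ AraC + Dox (1.88 ± 0.22; edgeR adjusted p = 0.00082). When the fit did not compare gates within the same library, 0 of these 8 were called. Prdx1 was not called without MA9 Δ/Δ PBS (edgeR adjusted p = 0.087). With gates of 20 cells or more, which adds HM AraC + Dox, 6 of 33 members were higher, and Gpx3 (edgeR adjusted p = 0.071) and Prdx1 (0.079) were not called.

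Outside the neutrophil and monocyte gates, the macrophage gate held 96 cells in MA9 Δ/Δ PBS and 66 in MA9 Δ/Δ AraC + Dox, and no test was made. Prdx1 stood at 1809 and 1543 CPM there, above its highest value in any other gate, 690 CPM. Cat, at 199 and 183 CPM, was also above every other gate, where it reached 60.7 CPM. T-cell-gated cells held 94.1 to 309 CPM of Gpx1, 138 to 279 CPM of Prdx5 and 0 to 23.3 CPM of Mgst1. Their own RNA and RNA from other cells cannot be told apart in these values. In mature neutrophils Prdx5 and Mgst1 were at least 2105 and 302 CPM.

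A further 69 genes of the same pathways were found in all libraries. In mature neutrophils against progenitors, 22 of 47 tested were higher and 10 lower, against 27.4% and 27.7% of all genes, and of 6 genes that supply NADPH 5 were higher and 1 lower. With total-UMI scaling these splits were 17 and 18, and 4 and 1. Those with the largest differences were Osgin1 (6.05 on the log2 scale), an oxidative stress response gene, Msrb1 (3.85), which repairs oxidised methionine, G6pdx (3.41), the entry enzyme of the pentose phosphate pathway that makes NADPH, and Sesn2 (3.17). In monocytes against mature neutrophils, 15 of 54 were higher and 25 lower (37.6% and 28.4% of all genes; 25 and 13 with total-UMI scaling), with Osgin1 at -5.16, Msra at -3.35, Msrb1 at -3.04 and Mgst3 at 2.75. In immature against mature neutrophils, 12 of 49 were higher and 22 lower (27.2% and 25.1% of all genes; 12 and 18 with total-UMI scaling), with the proton channel Hvcn1 at 2.96, Sesn2 at -2.72, Osgin1 at -2.55 and the iron store Fth1 at -2.43. In immature neutrophils against promyelocytes 18 of 54 were higher and 11 lower (19.5% and 19.1% of all genes; 8 and 17 with total-UMI scaling), led by Osgin1 (2.65), Hmox1 (2.02), G6pdx (1.87) and Gstm1 (-1.69). In monocytes against progenitors 10 of 54 were higher and 7 lower (7.39% and 5.98% of all genes; 11 and 7 with total-UMI scaling), led by Cbr1 (-1.14), Mgst3 (1.14), G6pdx (1.08) and Hmox1 (1.04).

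The study's design sets libraries labelled Shp-1 Δ/Δ against f/f. With 1 library per group there is no replicate check and no test; a difference of at least 1.5-fold at 20 CPM or more in either library was taken as a difference, and the intervals are 95% and cover counting error only. For PBS, 27 members reached 20 CPM: 4 were higher and 6 lower under the Δ/Δ label, against 13% higher and 8.58% lower of 6152 genes. For AraC + Dox, 3 of 27 were higher and 7 lower, against 15.6% and 12.6% of 6073 genes. The members' median log2 ratio was 0.27 and 0.01, beside 0.15 and 0.02 over all genes.

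In both pairs Prdx1 and Sod1 were past the fold upwards and Prdx5, Mgst1, Cybb, Ncf1 and Ncf4 downwards; the pairs share no library. Prdx1 stood at 150.6 CPM in MA9 f/f PBS, 313 in MA9 Δ/Δ PBS, 172 in MA9 f/f AraC + Dox and 333 in MA9 Δ/Δ AraC + Dox, with log2 ratios of Δ/Δ over f/f of 1.06 (1.02 to 1.09) and 0.96 (0.93 to 0.98). Prdx5 stood at 1606, 676, 2043 and 696 CPM in that order, and its ratios were -1.25 and -1.56. Both libraries labelled Δ/Δ were thus above both labelled f/f for Prdx1, and below both for Prdx5. Cybb stood at 732, 239, 686 and 267 CPM (-1.61 and -1.36), Mgst1 at 256, 69.2, 237 and 81.4 CPM (-1.89 and -1.54) and Ncf4 at 402, 189, 488 and 198 CPM (-1.09 and -1.30). Sod1 stood at 71.3, 119.9, 57.5 and 144 CPM, with ratios of 0.75 and 1.32. With CPM, in the PBS pair alone, Prdx2 (0.70) and Prdx4 (0.70) were past the fold upwards and Gsr (-0.81) downwards, and in the AraC + Dox pair alone Gclm (0.83) upwards and Txnip (-0.63) and Glrx (-0.59) downwards. With median-of-ratios scaling, which shifts the PBS pair by 0.14 (log2) and its all-gene split from 799 higher and 528 lower to 520 and 704, Prdx2 and Prdx4 were under the fold (0.57 and 0.56) and Cyba and Glrx past it downwards (-0.62 and -0.67). The members' split for PBS was then 2 higher and 8 lower, and Glrx was past the fold in both pairs.

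The make-up of the libraries differed along with these values, and in a whole library fewer cells of a type and less RNA per cell cannot be told apart. Immature neutrophils were 42.4% of cells in MA9 f/f PBS and 40.1% in MA9 f/f AraC + Dox, but 3.97% with PBS and 4.47% with AraC + Dox under the Δ/Δ label. Prdx5, Mgst1, Glrx, Gsr, Slc7a11 and the oxidase genes are among the members called higher in those cells than in promyelocytes. The part of cell make-up in the whole-library ratios was not tested as such, but the same ratios within a gate are given next. A gate does not hold make-up fixed, since cells near its minimum and RNA from other cells can enter it. In MA9 f/f PBS, 406 cells lay up to 25% below the promyelocyte minimum and 335 up to 25% above it. The part of such cells and RNA in the ratios within gates was not tested.

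The gates were then compared one at a time. The promyelocyte, immature neutrophil and monocyte gates come first. With PBS, in promyelocytes 7 of 26 members were past 1.5-fold for Δ/Δ over f/f, with 13% of 5958 genes in either direction. In immature neutrophils 2 of 25 were (8.06% of 5334 genes), and in monocytes 6 of 27 (23.0% of 6225 genes). In AraC + Dox the counts were 8 of 26 in promyelocytes (28.3% of 5954 genes), 6 of 25 in immature neutrophils (17.5% of 5399 genes) and 7 of 27 in monocytes (29.3% of 6221 genes). Mature neutrophils, of which there were 81 to 468 cells per MA9 library, had 6 of 24 members past the fold for PBS (29.7% of 4953 genes) and 10 of 25 for AraC + Dox (40.5% of 5025). Progenitors had 5 of 27 for PBS (17.5% of 6114 genes) and T cells 11 of 25 (38.9% of 6043), from 50 and 295 cells. Among these 10 counts, the members' share was farthest above the background in promyelocytes with PBS, and no test was made.

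**Figure D4:**
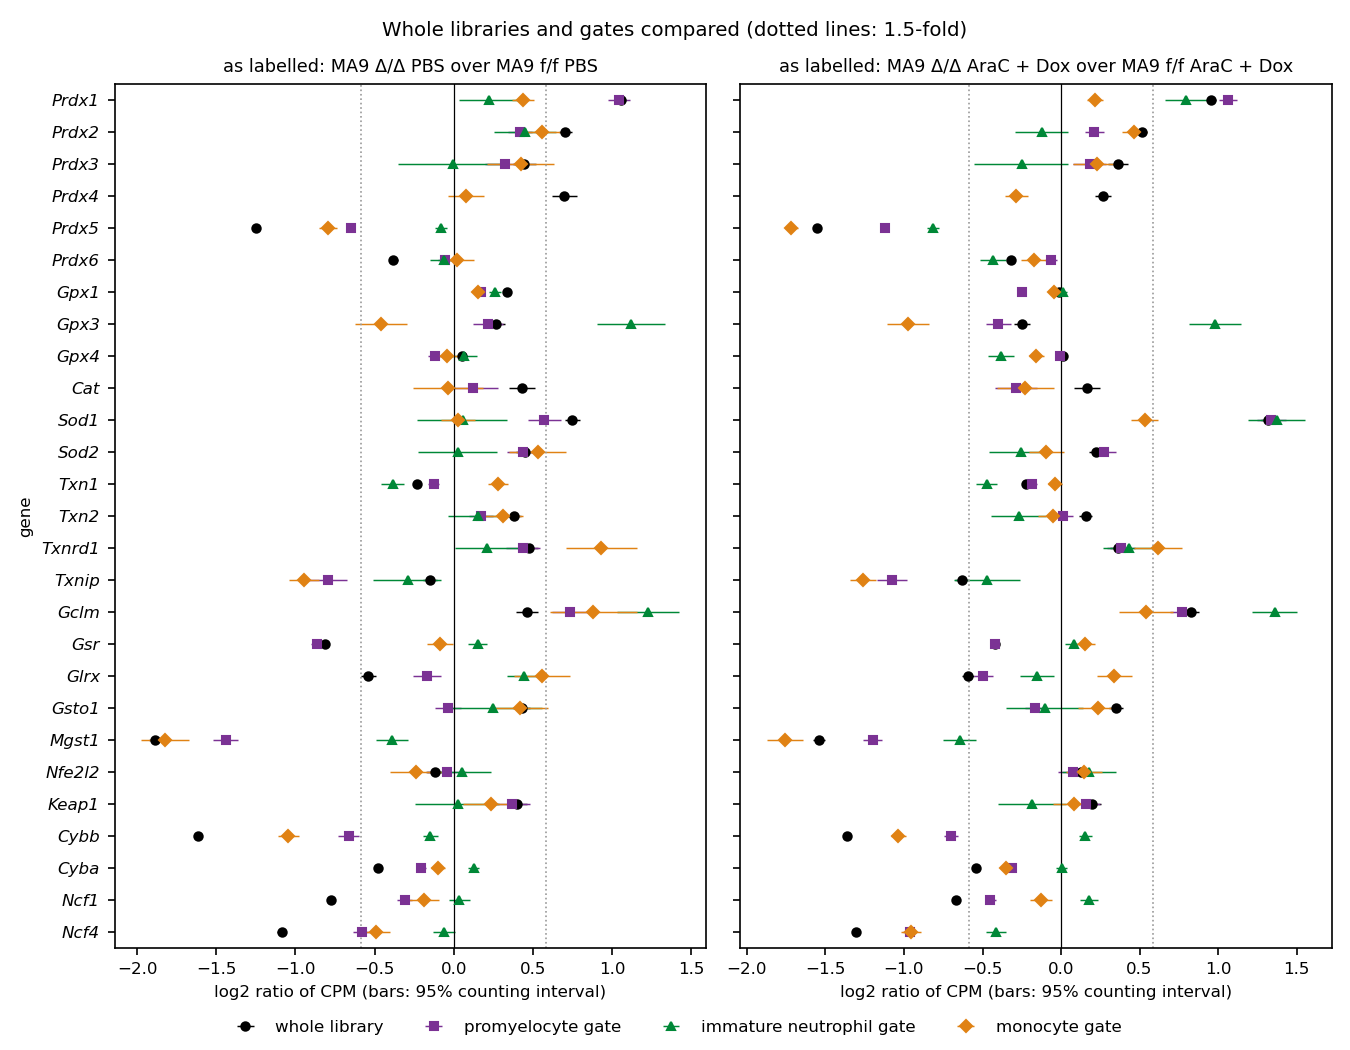
Log2 ratios of CPM in libraries labelled MA9 Δ/Δ over MA9 f/f, with PBS (left) and AraC + Dox (right), for whole libraries and 3 gates (symbols), with 95% counting intervals (bars) and the 1.5-fold lines dotted. Cybb lies at -1.61 in the whole PBS library and at -0.66 in promyelocytes, while Gclm lies above 0 in the whole libraries and in the 3 gates shown.

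Prdx1 in promyelocytes stood at 129.6 CPM in MA9 f/f PBS, 268 in MA9 Δ/Δ PBS, 124 in MA9 f/f AraC + Dox and 259 in MA9 Δ/Δ AraC + Dox, so its ratio there (1.05 and 1.06) was about that of the whole libraries. In immature neutrophils it was 69.9, 81.4, 74.1 and 129 CPM in the same order, past 1.5-fold only for AraC + Dox (0.79). For PBS, Gclm had a larger ratio in promyelocytes, immature neutrophils and monocytes than in the whole libraries, where it was 0.46, but not in progenitors. For AraC + Dox the whole-library ratio was 0.83, and of the same 3 gates only immature neutrophils had a larger one. Gclm stood at 49.0, 81.6, 75.7 and 129 CPM in promyelocytes and at 34.9, 81.7, 45.9 and 118 CPM in immature neutrophils. Its ratios were 0.74 and 0.77 in the first gate and 1.23 and 1.36 in the second. In monocytes Gclm was 21.9, 40.4, 35.2 and 51.1 CPM, past the fold for PBS (0.88) and not for AraC + Dox. In progenitors, which could be compared for PBS alone, it stood at 28.2 and 28.0 CPM in MA9 f/f PBS and MA9 Δ/Δ PBS. In mature neutrophils of that pair it stood at 19.6 CPM (18 UMIs) and 87.0 CPM, a ratio of 2.15 (1.41 to 2.97).

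Mgst1 was lower in the libraries labelled Δ/Δ in promyelocytes, by -1.44 (-1.52 to -1.36) for PBS and -1.20 (-1.26 to -1.14) for AraC + Dox, and in monocytes, by -1.82 and -1.76. Its promyelocyte levels were 206, 75.7, 214 and 93 CPM in MA9 f/f PBS, MA9 Δ/Δ PBS, MA9 f/f AraC + Dox and MA9 Δ/Δ AraC + Dox. Prdx5 was lower in promyelocytes (-0.65 and -1.12) and monocytes (-0.79 and -1.72), and in immature neutrophils only for AraC + Dox (-0.82), where the levels were 2333, 2206, 2700 and 1534 CPM. Txnip, which restrains thioredoxin, was lower in promyelocytes (-0.79 and -1.08) and monocytes (-0.95 and -1.26) of the libraries labelled Δ/Δ. In the whole PBS pair it was at -0.15. In immature neutrophils with PBS, 0 of 25 members were past 1.5-fold downwards, so neither Mgst1 nor Txnip was.

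For the oxidase the whole-library ratio was larger than those within gates. Cybb stood at 1276, 1151, 1066 and 1188 CPM in immature neutrophils of the 4 MA9 libraries, under 1.5-fold apart. In promyelocytes its ratio was -0.66 for PBS and -0.70 for AraC + Dox, and in monocytes -1.04 in both, from 621 CPM in MA9 f/f PBS, 301 in MA9 Δ/Δ PBS, 681 in MA9 f/f AraC + Dox and 332 in MA9 Δ/Δ AraC + Dox. Ncf4 was past the fold within gates only for AraC + Dox, at -0.96 in promyelocytes and -0.95 in monocytes, and Ncf1 in none of the 3 gates. Sod1 was past the fold for AraC + Dox in promyelocytes (1.34) and immature neutrophils (1.37), from 49.7 to 126 and from 29.6 to 76.8 CPM. Gpx3 was higher in immature neutrophils of both libraries labelled Δ/Δ (1.12 and 0.98) and lower in monocytes for AraC + Dox (-0.97). Txnrd1 was higher in monocytes (0.93 and 0.62).

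The treatment pairs set AraC (cytarabine, a cytidine analogue used against acute myeloid leukaemia) plus Dox against PBS. Between the libraries labelled MA9 f/f, 1 of 27 members was higher with AraC + Dox and 0 lower, against 1.28% and 2.37% of 5782 genes: Prdx4, at 29.7 CPM with PBS and 58.4 with AraC + Dox (0.97, 0.90 to 1.05). Between the libraries labelled MA9 Δ/Δ, Gclm was higher (0.86), from 56.0 to 102 CPM, and Txnip lower (-0.63), from 112 to 72.8 CPM, against 2.69% higher and 5.64% lower of 6026 genes. With median-of-ratios scaling, a shift of -0.04 (log2), Txnip was under the fold (-0.58) and Prdx4, at 0.54 with CPM, just past it (0.59), which left 2 members higher and 0 lower. Within gates, 1 member was past the fold in promyelocytes (3.44% of 5817 genes), 1 in immature neutrophils (4.73% of 5325) and 3 in monocytes (5.25% of 6000) for f/f, and 1 (7.30% of 5783), 2 (11.1% of 5329) and 0 (4.83% of 6005) for Δ/Δ. The smaller gates had more members past the fold, and a larger background too. In mature neutrophils 8 of 24 were for f/f (29.7% of 4912 genes) and 8 of 25 for Δ/Δ (40.3% of 5029). The other gates of the Δ/Δ pair had 6 of 29 in progenitors (15.5% of 6276 genes), 14 of 28 in macrophages (44.8% of 6648), 3 of 24 in B cells (22.0% of 6008) and 4 of 27 in T cells (20.4% of 6067). Gclm in mature neutrophils of f/f stood at 19.6 CPM with PBS and 89.9 with AraC + Dox (2.20). Gclm was past it in promyelocytes of both, by 0.63 and 0.66. The monocytes of f/f also had higher Prdx4 (0.69), Sod2 (0.73) and Gclm (0.68).

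The HM pair differed in 8 members upwards and 3 downwards of 26 measured, beside 28.0% higher and 22.0% lower of 5129 genes. With median-of-ratios scaling, which shifts this pair by 0.08 (log2), 8 were higher and 6 lower: Prdx5 (-0.56 with CPM, -0.64 with that scaling), Gsr (-0.54, -0.62) and Ncf1 (-0.54, -0.62) then passed the fold. Sod1 stood at 60.6 CPM with PBS and 171 with AraC + Dox (1.5, 1.40 to 1.60), Gsto1 at 14.4 and 59.5 CPM (2.04), Prdx3 at 14.2 and 39.3 CPM (1.47) and Cyba at 1774 and 717 CPM (-1.31). These libraries differed in make-up and quality as well: mature neutrophils were 43.8% and 24.9% of cells, T cells 29 and 578 cells, and the share of barcodes over the mitochondrial limit 74.7% and 8.33%; their part was not tested. Slc7a11, at 138 and 82.8 CPM (-0.73), was above its levels of 2.16 to 10.1 CPM in the whole MA9 libraries, where mature neutrophils were 0.858% to 4.96% of cells. Within gates Slc7a11 was also highest in HM AraC + Dox for immature neutrophils (132 CPM) and promyelocytes (15.3 CPM). Within HM immature neutrophils 9 of 23 members were past the fold (40.1% of 4327 genes), in mature neutrophils 12 of 23 (52.2% of 4105) and in monocytes 7 of 29 (29.2% of 5686 genes). Cyba was lower in immature neutrophils and monocytes, by -1.02 and -1.26, from 2105 to 1038 CPM in immature neutrophils and from 1824 to 760 CPM in monocytes. Txnip was higher in both, by 1.44 and 1.11, and stood at 339 and 880 CPM in mature neutrophils.

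**Figure D5:**
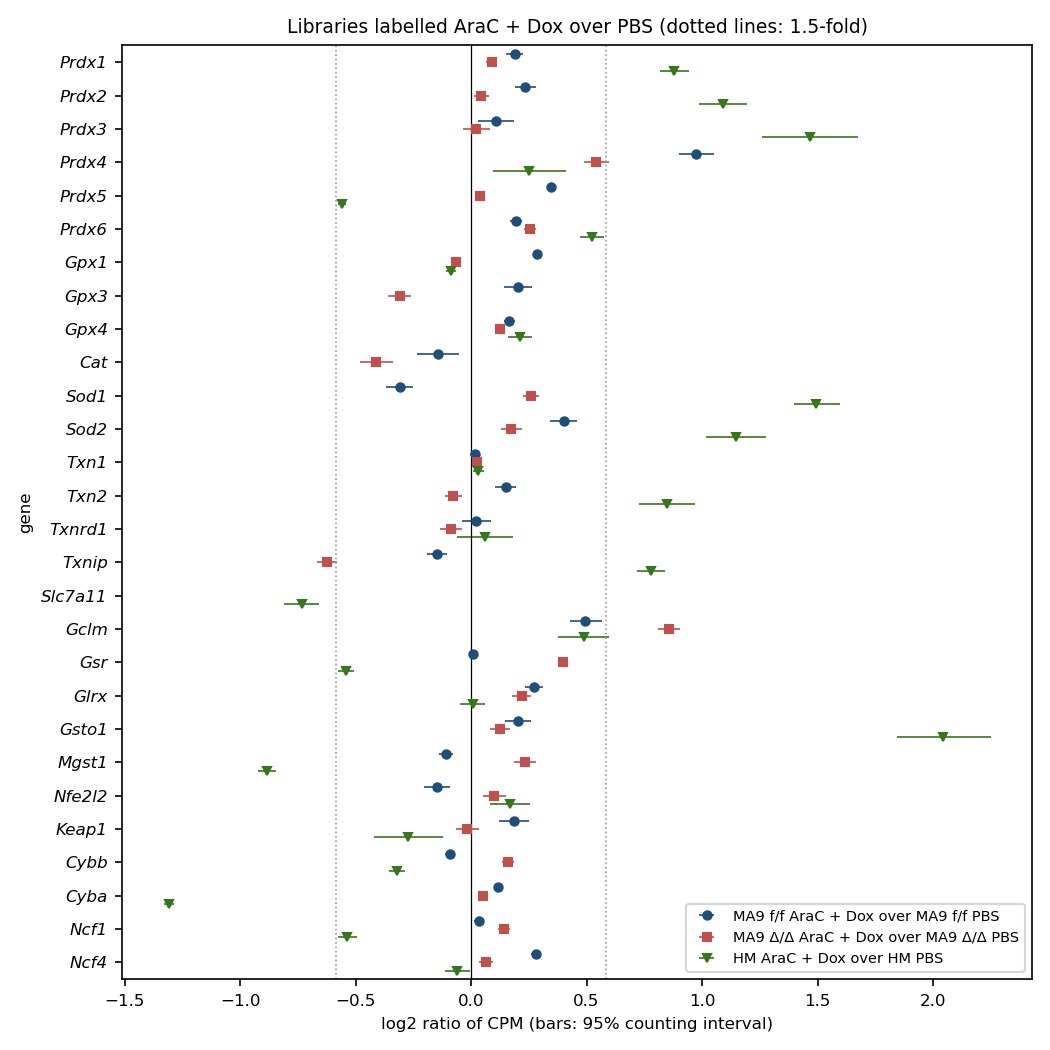
Log2 ratios of CPM in libraries labelled AraC + Dox over those labelled PBS, for MA9 f/f (circles), MA9 Δ/Δ (squares) and HM (triangles), with 95% counting intervals and the 1.5-fold lines dotted. In the MA9 f/f pair Prdx4 (0.97) is the member past the fold, in the MA9 Δ/Δ pair Gclm (0.86) and Txnip (-0.63), and HM values run from -1.31 (Cyba) to 2.04 (Gsto1).

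A last comparison set MA9 Δ/Δ AraC + Dox against MA9 f/f PBS; it shares its samples with the pairs above and differs in both labels. There 6 of 27 members were higher and 6 lower, beside 16.4% and 13% of 6110 genes. With median-of-ratios scaling (a shift of 0.06) 5 were higher and 6 lower, Sod2 being under the fold at 0.56. Higher were Gclm (1.32), Prdx4 (1.24), Prdx1 (1.14), Sod1 (1.01), Prdx2 (0.75) and Sod2 (0.62), and lower were Mgst1 (-1.65), Cybb (-1.46), Prdx5 (-1.21), Ncf4 (-1.02), Txnip (-0.78) and Ncf1 (-0.64). Of the other pathway genes, the membrane transferase Mgst2 had the largest ratio in both labelled deletion pairs (-1.47 and -1.30), with Msrb1 at -0.97 and -1.21. Gstm1 was higher in MA9 Δ/Δ AraC + Dox than in MA9 f/f AraC + Dox (1.07) and than in MA9 Δ/Δ PBS (1.06). In the HM pair Osgin1 (2.01), Gstm1 (1.65), Fth1 (1.29) and Sqstm1 (1.22) led.

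Reads could not always be given to 1 gene. Slc7a11 and Gclm overlap pseudogenes on the same strand, Txnrd1 overlaps Eid3, and Prdx2, Prdx5, Sod1, Txnip and Ncf1 have overlapping antisense genes; the sources used here do not say how the counting treated them. The members under 20 CPM in every library numbered 6, and no library ratio is given for them.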

How the data were processed

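The 6 libraries are single-cell UMI counts of mouse bone marrow. The deposited matrices hold whole-number counts per gene and barcode; per the submitters' processing notes the authors made them with Cell Ranger 3.0.2 on mm10, and the headers of the HM files name no software and list other features and longer barcodes. Gene identifiers shared by all libraries were used for fits. Cells under 500 genes or over 10% mitochondrial UMIs were left out, and doublets were kept (leaving out the 5% of cells with the highest doublet score was an alternative). A cell met a marker list when its summed UMIs per 10000 UMIs reached a minimum with at least 3 of its markers seen. The minimums were 200 for immature neutrophil, 30 for mature neutrophil, 100 for promyelocyte, 10 for monocyte, 5 for progenitor, 20 for macrophage, and 10 for B cell and T cell. The neutrophil lists were ranked. A cell that met the immature list did not count as mature or promyelocyte, and one that met the mature list did not count as promyelocyte. Cells that still met several lists entered no gate. The minimums were set after the marker levels were seen. Gates of at least 50 cells were used.

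Levels are CPM, UMIs of a gene per 1000000 UMIs of the library or gate. Gates were compared on summed counts with edgeR 4.0.16 (R 4.3.3) by its quasi-likelihood test, with the library as a term, TMM scaling, its default low-count filter and Benjamini-Hochberg adjustment over all genes tested; DESeq2 1.42.0 was an alternative. Because the cells of a library come from 1 sample, each library is 1 replicate, and nothing says that libraries are separate animals. edgeR gives no SE here, so the SE of a fitted value is its absolute log2 fold change divided by the square root of the test's F statistic. Ratios between libraries have exact 95% intervals and a floor of 3 counts, which cover counting error only. On simulated counts of the real genes the fits recovered 31% to 65% of genes changed by 1 and 85% to 96% of those changed by 2 on the log2 scale. In each comparison 100 genes were changed by each size, as many up as down, and 3 to 18 unchanged genes were called. The real comparisons called far more genes, so the simulation does not show how the fits depend on the scaling. All 34 members may be named in every comparison; of the other pathway genes, up to 4 with the largest ratio at 20 CPM or more, in the cell type comparisons among those passing the test. The members, lists and comparisons were chosen with earlier results of these data known. Shared cell barcodes between libraries numbered 6 in the HM pair and 18 to 27 among MA9 pairs. Python 3.11.15 with scanpy 1.11.5 and scipy 1.17.1 was used.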

Additional observations from a re-analysis of the deposited data

Results flagged for a closer look

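Txnip moved in opposite directions in 2 pairs labelled AraC + Dox over PBS: its log2 ratio was -0.63 between the MA9 Δ/Δ libraries and 0.78 between the HM libraries. With median-of-ratios scaling these were -0.58, which is under 1.5-fold, and 0.70. Between the MA9 f/f libraries it was -0.15. The difference between the pairs was not tested, since each group is 1 library.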

How the results depend on the processing

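Of the alternatives tried, 136 counts of members stayed within 1.5 times the main count and 12 did not. Without the minimum of 20 CPM, the number of members past 1.5-fold was 2 for MA9 f/f AraC + Dox over PBS (1 with it), 4 for MA9 Δ/Δ AraC + Dox over PBS (2 with it) and 17 for the HM pair (11 with it). With no library term (no replicate block), monocytes against progenitors gave 0 members called in place of 8, and immature against mature neutrophils 6 in place of 12. With gate minimums doubled, monocytes against progenitors gave 13; the gate counts became 2 in immature neutrophils and 1 in monocytes for MA9 f/f AraC + Dox over PBS (1 and 3 before) and 2 in monocytes for MA9 Δ/Δ AraC + Dox over PBS (0 before). Leaving out likely doublets gave 5 in place of 8 in mature neutrophils of that pair. Leaving out 1 library at a time gave 21 to 23 members called for mature neutrophils against progenitors, 7 to 11 for monocytes against progenitors, 27 to 30 for monocytes against mature neutrophils, 10 to 17 for immature against mature neutrophils and 11 to 27 for immature neutrophils against promyelocytes. Of the log2 ratios of single members between whole libraries, 757 stayed within their counting interval and 209 moved out of it; only 60 of 161 stayed with median-of-ratios scaling and 90 of 161 with the reduced total (without mitochondrial, ribosomal, haemoglobin, S100a8, S100a9 and gate marker genes); 0 reversed. Of ratios within gates, 276 stayed and 50 moved. Of single member values between gates, 1068 kept their direction and call, 92 lost the call and 1 reversed: Gpx4, monocytes against mature neutrophils, at 0.12 with total-UMI scaling. Values of the mature neutrophil gate that reversed with doubled minimums were Prdx2 (from 1.33 to -0.74 for Δ/Δ over f/f with AraC + Dox, from 0.90 to -0.46 for Δ/Δ AraC + Dox over PBS), Gsto1 (from -1.17 to 0.25 for f/f AraC + Dox over PBS, from -0.84 to 0.77 for Δ/Δ AraC + Dox over f/f PBS) and Keap1 (from -0.85 to 0.69 for the last pair); without likely doublets Gsto1 was 0.51 and 1.36. Gpx3 in progenitors of Δ/Δ AraC + Dox over PBS went from -0.81 to 0.0092. The cause was not tested. These gates hold few UMIs: 81 to 468 cells in the mature neutrophil gate of the MA9 libraries. No paired analysis by replicate number was possible because each group has 1 library; the library term serves as the block between gates.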
